A study of Sus scrofa with 30 samples.

Results

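The miRNA cluster of miR-362, miR-500, miR-502, miR-532 and miR-660 was followed in the plasma of 3 male Göttingen minipigs, about 4 months old, from 7 days before to 20 days after a single total body irradiation (TBI) of 2.2 Gy. Members were the rows named as ssc-miR-188, ssc-miR-362, ssc-miR-500, ssc-miR-501, ssc-miR-502, ssc-miR-532 or ssc-miR-660, with or without an arm. Of the 411 ssc-miRNAs counted, 4 met this rule: ssc-miR-362, ssc-miR-500, ssc-miR-532-5p and ssc-miR-532-3p. For miR-188, miR-501, miR-502 and miR-660 there were 0 rows in the counts used here. The table names an arm of the hairpin for miR-532 and none for miR-362 or miR-500.

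Each animal was drawn both before and after irradiation, but the main tests had no term for the animal. The draws C7 and C1, taken 7 days and 1 day ahead of irradiation, were pooled as the pre-TBI baseline, and 0d was drawn 6 h after TBI. The study grouped 0d, 1d, 3d and 7d as Early, put 10d with 14d as Mid, and named 17d Late and 20d LR. No sham-irradiated animals were analysed here, so time, repeated bleeding under anaesthesia and irradiation cannot be told apart. Per the study's methods, oral antibiotics were given when neutrophil counts fell below a set limit, and these cannot be told apart from time after TBI either. The 3 animals belonged to the vehicle arm of a drug trial, received dextrose under the skin on days 1 and 8, and did not survive the irradiation. The phases were drawn by the study from a principal component analysis of these libraries, so they are not independent of the values compared.

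Of 30 libraries, 24 held at least 1000 counts and were used, with totals from 24341 to 550316 and a median of 240612. The 6 libraries left out were those of minipig 3 from 3d on, with totals of 0 to 17 and 0 counts of any member, so every value after 1d rests on minipigs 1 and 2. Libraries per group were 6 for pre-TBI, 10 for Early, 4 for Mid, 2 for Late and 2 for LR. The smallest libraries were minipig 1 at C7 (24341 counts) and the draws of 10d and 17d (29159 to 63441 counts).

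A miRNA hairpin is cut by Drosha and Dicer into a short duplex, and either strand, the 5p or the 3p arm, can be loaded into an Argonaute protein to repress target mRNAs. In mammals the hairpins of this cluster lie close together on the X chromosome at the gene of the chloride and proton exchanger CLCN5, and hairpins of a cluster can be cut from one primary transcript. In plasma, miRNAs are carried by vesicles, lipoproteins and Argonaute, and they come from many tissues and blood cells. In the RefSeq gene table of assembly Sscrofa11.1, MIR532, MIR500 and MIR362 follow each other in that order on chromosome X between USP27X, which encodes a ubiquitin protease, and CLCN5. No entry was found there for the other 4 numbers.

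ssc-miR-362 was the most abundant member. Its mean was 10.71 log2 CPM (CPM, the TMM-scaled count of a library brought to a common total) with an SD of 0.70 over the 24 libraries, which was rank 93 of 411. ssc-miR-532-3p had a mean of 9.35 (rank 171), ssc-miR-500 of 9.31 (rank 174) and ssc-miR-532-5p of 8.99 (rank 204). The last 3 lay within 1 SD of each other, since their SDs were 0.45, 0.46 and 0.81. Counts of different miRNAs also carry the ligation bias of small RNA libraries, so this order describes these libraries. All 4 members were counted in each of the 24 libraries, from 4 counts (ssc-miR-532-5p in minipig 1 at C7) to 3078 counts (ssc-miR-362 in minipig 2 at 20d).

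**Figure D1:**
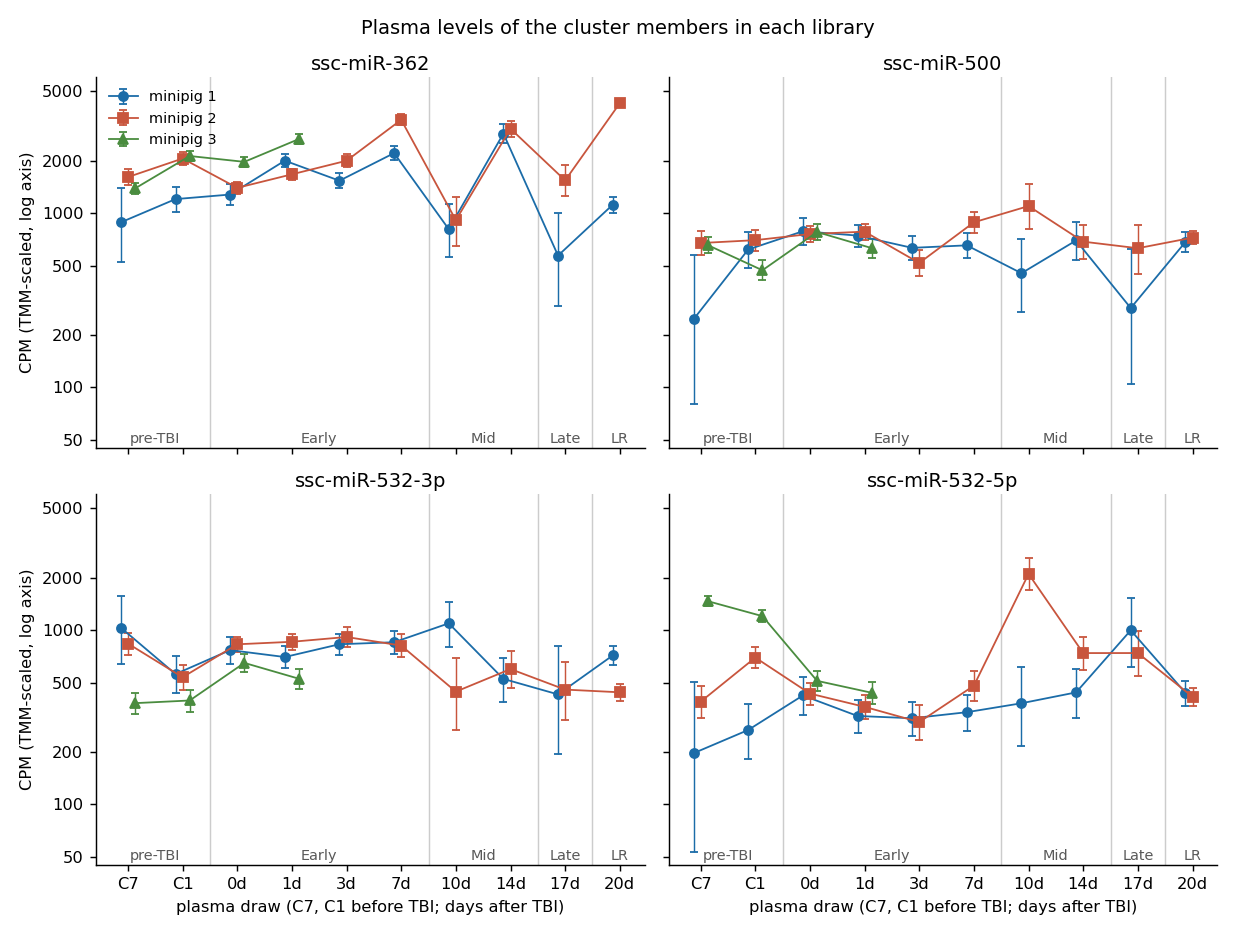
CPM (log axis) of each member at each plasma draw, 1 line per minipig, with 95% Poisson intervals of the count, which cover counting error only. The level of ssc-miR-532-5p before TBI was far apart between the animals and came together from 0d to 7d, while ssc-miR-362 was at 808 and 910.0 CPM at 10d and at 2859 and 3048 CPM at 14d.

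Before irradiation, ssc-miR-362 was at 884 and 1202 CPM in minipig 1 (C7 and C1), at 1609 and 2055 CPM in minipig 2 and at 1384 and 2124 CPM in minipig 3. ssc-miR-500 was at 246 and 618 CPM in minipig 1, at 673 and 699 CPM in minipig 2 and at 655 and 469.5 CPM in minipig 3. The lowest of these, 246 CPM, came from 5 counts, with a 95% Poisson interval of 79.8 to 573 CPM. Both members were thus lowest in the shallow C7 library of minipig 1.

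The arms of miR-532 were ordered in opposite ways across the animals before TBI. ssc-miR-532-5p was at 197 and 267 CPM in minipig 1, at 388 and 695 CPM in minipig 2, and at 1465 and 1202 CPM in minipig 3. ssc-miR-532-3p was at 1032 and 559 CPM in minipig 1, at 837 and 536 CPM in minipig 2, and at 381 and 394 CPM in minipig 3. Minipig 3 was thus highest for the 5p arm and lowest for the 3p arm in both of its pre-TBI draws, and minipig 1 was lowest for the 5p arm in both of its own. Between C1 and C7, 0 of the 4 members had an unadjusted p under 0.05 by edgeR's quasi-likelihood test, beside 0.73% of all 411 ssc-miRNAs.

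At Early, ssc-miR-532-5p was lower than before TBI by the unadjusted test, and the spread of its level between libraries was narrower. Its 10 Early libraries ranged from 297 to 511 CPM with a median of 392, against 197 to 1465 CPM with a median of 541.8 in the 6 pre-TBI libraries. The Early values lay inside the pre-TBI range and were much closer together, with an SD of 0.27 on the log2 scale against 1.158. The log2 fold change was -0.89 (SE 0.36, 0.54-fold, unadjusted p = 0.0214, adjusted p = 0.19 by edgeR's quasi-likelihood test). It was the 1 member of 4 with an unadjusted p under 0.05, beside 18.7% of all ssc-miRNAs at Early, and 0 members and 0% of all ssc-miRNAs passed at an adjusted p under 0.05. The other members had log2 fold changes of 0.37 (SE 0.34, ssc-miR-362), 0.35 (SE 0.23, ssc-miR-532-3p) and 0.32 (SE 0.22, ssc-miR-500), and none of these passed.

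The change of ssc-miR-532-5p differed between the animals. In minipig 1 all 4 Early libraries (421.4, 321, 312 and 338 CPM at 0d, 1d, 3d and 7d) were above both of its pre-TBI libraries, with a mean log2 difference of 0.58. In minipig 2 the Early libraries were at 432, 362.6, 297 and 480 CPM, of which 2 were below both pre-TBI libraries, with a mean difference of -0.42. In minipig 3 both Early libraries (511 and 437 CPM) were below both pre-TBI libraries, with a mean difference of -1.47. Minipig 3 therefore started above minipig 1 beyond the Poisson intervals. The 3 animals were at a like level at Early, as the plot of levels by draw shows. The position of minipig 1 was not particular to ssc-miR-532-5p. Its levels of ssc-miR-362 and ssc-miR-500 were also above both pre-TBI libraries in all 4 Early libraries, with mean differences of 0.73 and 0.83. The share of all ssc-miRNAs in such a position within an animal is not given here.

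With the minipig as a block, since the same animals were drawn at each time, the Early log2 fold change of ssc-miR-532-5p was -0.47 (SE 0.32, unadjusted p = 0.155, adjusted p = 0.342 by edgeR), and the call was lost. Without minipig 3 it was -0.15 (SE 0.37, unadjusted p = 0.697 by edgeR). Leaving out a single library of minipig 3 also ended the call in edgeR, with -0.54 (unadjusted p = 0.135) without its C7 library and -0.71 (unadjusted p = 0.0692) without its C1 library. Without the C7 or the C1 library of minipig 1 the change was -1.21 (adjusted p = 0.0455) or -1.22 (adjusted p = 0.0379), and it then passed after adjustment in edgeR too. A fit with each minipig and phase as a group gave a difference of -1.995 (SE 0.48) between the Early change of minipig 3 and that of minipig 1, with an unadjusted p = 0.000824 and an adjusted p = 0.17 by edgeR. In that comparison the unadjusted p was under 0.05 for 16.1% of all ssc-miRNAs and the adjusted p for 0% of them, and the other 3 members had unadjusted p-values from 0.237 to 0.637.

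Of 20 rows of blood cell, liver and muscle markers, 5 were called at Early at an unadjusted p, beside 18.7% of all ssc-miRNAs, and 0 after adjustment. The 1 row of miR-122, the main miRNA of hepatocytes, was called lower, from 0.0637 to 0.147% of the library before TBI to 0.0279 to 0.0764% at Early. Of 6 rows of striated muscle miRNAs (miR-1, miR-133a, miR-133b, miR-206 and miR-208b) 3 were called, 1 higher and 2 lower, with a sum of 0.119 to 0.518% before TBI and 0.148 to 0.294% at Early. Of the 7 platelet rows (miR-126, miR-191, miR-199a and miR-199b) 1 was called higher, with a sum of 0.953 to 2.25% before TBI and 1.13 to 7.72% at Early, and of the 3 erythroid rows (miR-451, miR-144 and miR-486) 0 were called, with 1.02 to 9.02% and 0.827 to 7.06%. The 2 rows of haematopoietic miR-142 and the 1 row of lymphocyte miR-150 had 0 calls at Early. None of these markers was at 0 counts in any library. Their part in the level of ssc-miR-532-5p was not tested.

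**Figure D2:**
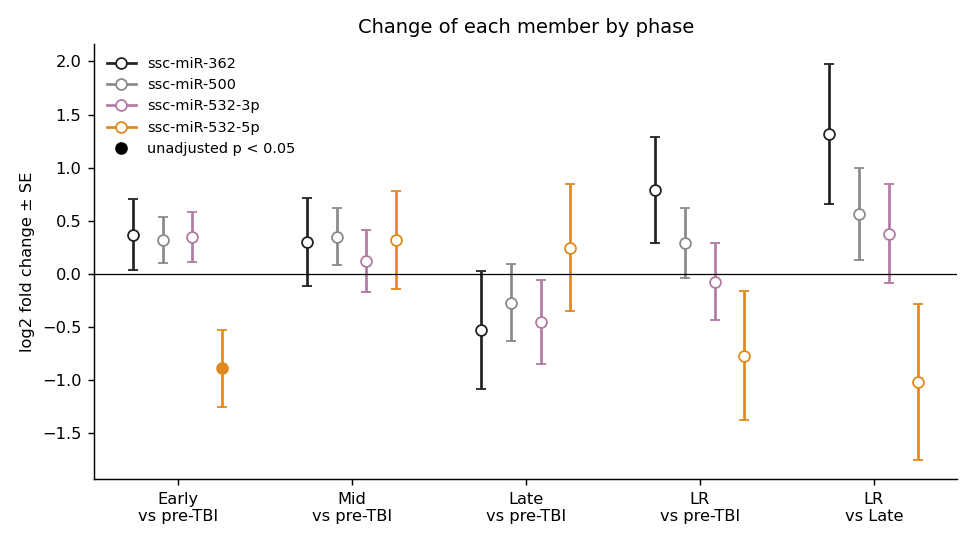
Log2 fold change of each member in each phase against pre-TBI, and of LR against Late, from 1 edgeR fit, with bars of 1 SE. The single filled point, ssc-miR-532-5p at Early (-0.89), had an unadjusted p under 0.05, and no member had an adjusted p under 0.05.

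From 7d on, the level of ssc-miR-362 ran over a wide range, from 569.9 to 4267 CPM. In minipigs 1 and 2 the 7d libraries held 2207 and 3428 CPM, those of 10d only 808 and 910.0 CPM, and those of 14d again 2859 and 3048 CPM. The 17d libraries held 569.9 and 1539 CPM, and the last draw, 20d, gave 1116 and 4267 CPM. Both animals moved the same way from each of these draws to the next, and at 7d and at 14d both libraries were above all 6 pre-TBI libraries (884 to 2124 CPM). Such a position held for 5.35% of all ssc-miRNAs at 7d and 6.57% at 14d. Earlier values were inside or near the pre-TBI range, since 0d gave 1277, 1395 and 1967 CPM in minipigs 1, 2 and 3. The values of 1d were 1998, 1668 and 2660 CPM, and 3d gave 1533 and 1996 CPM in minipigs 1 and 2.

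At 14d the log2 fold change of ssc-miR-362 against pre-TBI was 0.92 (SE 0.42, 1.9-fold, unadjusted p = 0.04, adjusted p = 0.534 by edgeR). It was the 1 of 4 members called at 14d, beside 9% of all ssc-miRNAs, and 0 members passed after adjustment, beside 0.243% of all. The call held by a narrow margin, since leaving out any of 11 single libraries ended it, with log2 fold changes from 0.74 (without minipig 1 at C7) to 1.12 (without minipig 3 at C1) over all 24 such fits. With the minipig as a block the 14d change was 1.13 (SE 0.35, unadjusted p = 0.00503, adjusted p = 0.324), and ssc-miR-362 also passed at 7d (1.006, SE 0.35, unadjusted p = 0.0105, adjusted p = 0.337) and at 20d (0.82, SE 0.36, unadjusted p = 0.0328, adjusted p = 0.274). The 20d value rested on minipig 2, whose mean difference from its own pre-TBI libraries was 1.23 against 0.11 in minipig 1, and without the block it went from 0.79 to -0.71 when the 20d library of minipig 2 was left out. At 7d it went from 0.86 to 0.45 without the block when the 7d library of minipig 2 was left out. The block also brought ssc-miR-532-5p at 10d under the threshold (1.25, SE 0.49, unadjusted p = 0.0204, adjusted p = 0.474), while without the block this value was 0.78, and it was -1.01 when the 10d library of minipig 2 was left out. The shares of all ssc-miRNAs called under the block at these time points are not given here, so its calls cannot be set against them.

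In the fit without the block, 0 members were called at 0d, 1d, 3d, 7d, 10d, 17d or 20d. The shares of all ssc-miRNAs called in these comparisons were, in the order given, 8.52%, 12.2%, 8.52%, 8.27%, 7.3%, 23.8% and 7.06%. The low values of ssc-miR-362 at 10d and 17d came from 34, 39, 12 and 98 counts in libraries of 29159 to 63441 counts, and the high value at 20d in minipig 2 from 3078 counts in the largest library. Across the 24 libraries the level of ssc-miR-362 had a Pearson r of 0.55 with the log2 library total, as a description of libraries that share animals. This was rank 63 of 411 in a range from -0.86 to 0.80, and r was 0.46 for ssc-miR-500, -0.03 for ssc-miR-532-3p and -0.12 for ssc-miR-532-5p. The part of library depth in the level of ssc-miR-362 was not tested.

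Over the phases, 0 of the 4 members were called at Mid, Late or LR, beside 5.35%, 22.6% and 5.6% of all ssc-miRNAs, and none passed after adjustment, beside 0%, 4.38% and 0%. Early, Mid, Late and LR had median log2 fold changes over the members of 0.34, 0.31, -0.36 and 0.11, against medians of 0.02, 0.05, 0.08 and -0.01 over all 411 ssc-miRNAs. At Late, 3 members had negative values, -0.53 (SE 0.55) for ssc-miR-362, -0.45 (SE 0.40) for ssc-miR-532-3p and -0.27 (SE 0.36) for ssc-miR-500, and ssc-miR-532-5p had 0.25 (SE 0.60). All 4 were smaller than, or close to, their SE, and the sign for ssc-miR-532-5p turned with the scaling (-0.21 with library size only). The pre-TBI group of this fit includes minipig 3, which has no Mid or Late library in use. With the minipig as a block, ssc-miR-532-5p had 0.82 (SE 0.41, unadjusted p = 0.0601) at Mid and 0.88 (SE 0.52, unadjusted p = 0.102) at Late by edgeR. Its mean differences from the same animal's pre-TBI libraries were 0.81 and 1.25 at Mid and 2.08 and 0.50 at Late in minipigs 1 and 2. In the fit without the block, the Late values of ssc-miR-500 and ssc-miR-362 rested on single libraries. They were 0.14 and -0.0033 without minipig 1 at 17d, and -1.01 and -1.45 without minipig 2 at 17d.

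Between Late and LR, ssc-miR-362 had a log2 fold change of 1.32 (SE 0.66, 2.49-fold, unadjusted p = 0.0581, adjusted p = 0.168 by edgeR). The libraries were at 569.9 and 1539 CPM at 17d and at 1116 and 4267 CPM at 20d, so the groups overlapped. The value rested on 1 library, since it was -0.12 without minipig 2 at 20d. Of the members, 0 were called in this comparison, beside 32.1% of all ssc-miRNAs at an unadjusted and 0.73% at an adjusted p under 0.05.

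ssc-miR-500 stayed within a narrow band in most libraries after irradiation. At 0d it was at 786, 758 and 778 CPM in minipigs 1, 2 and 3, all above the 6 pre-TBI libraries (246 to 699 CPM), a position that 5.6% of all ssc-miRNAs held at 0d. The log2 fold change was 0.43 (SE 0.30, unadjusted p = 0.166 by edgeR) and did not pass, and it was 0.093 without minipig 1 at C7, the library with 5 counts of this miRNA. From 1d on it ranged from 517 CPM (minipig 2 at 3d) to 885 CPM (minipig 2 at 7d) in all libraries except those of 10d, at 451.5 and 1097 CPM, and that of minipig 1 at 17d, at 285 CPM from 6 counts.

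ssc-miR-532-3p stood between 525.5 and 912 CPM in the 10 Early libraries, with a median of 822, against a median of 548 in the pre-TBI libraries (381 to 1032 CPM). In minipig 3 both Early libraries (648 and 525.5 CPM) were above both pre-TBI libraries, while in minipig 1 none of the 4 (767, 700.3, 829.2 and 851.5 CPM) was outside them. Later values, each for minipig 1 and then 2, were 1093 and 443 CPM (10d), 525 and 597 CPM (14d), 427 and 455 CPM (17d) and 715 and 439.5 CPM (20d). The groups overlapped throughout, and the main edgeR fit called ssc-miR-532-3p at no phase or time point. By the DESeq2 Wald test it passed at Early (log2 fold change 0.41, unadjusted p = 0.04995, adjusted p = 0.19), beside 37 higher and 70 lower of all ssc-miRNAs. Without minipig 1 at C7 its 3d change went from 0.52 to 0.73, and edgeR then called it unadjusted.

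The most marked pattern within the cluster was the opposite course of the arms of miR-532. Over the 24 libraries the log2 CPM of ssc-miR-532-5p and ssc-miR-532-3p had a Pearson r of -0.75 and a Spearman rho of -0.75, given as a description, since libraries share animals, depth and scaling. Among the 410 possible partners of either arm, the other arm had the lowest r of all. In 78 hairpins for which both arms were listed, r between the arms ranged from -0.79 to 0.99 with a median of 0.29, was below 0 in 23, and was the second lowest in miR-532. Within minipig 1 r was -0.65 (n = 10), within minipig 2 -0.70 (n = 10) and within minipig 3 -0.90 (n = 4). Within single animals the other arm was not the lowest partner, since 33 and 27 of 410 partners of the 5p arm lay lower in minipigs 1 and 2 and still more in minipig 3, and 4, 3 and 71 of those of the 3p arm in minipigs 1, 2 and 3. The r was -0.71 over the 18 libraries with at least 100000 counts. It depended on the scaling, as r was -0.43 with library size only, where 6 and 5 of 410 partners lay lower.

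**Figure D3:**
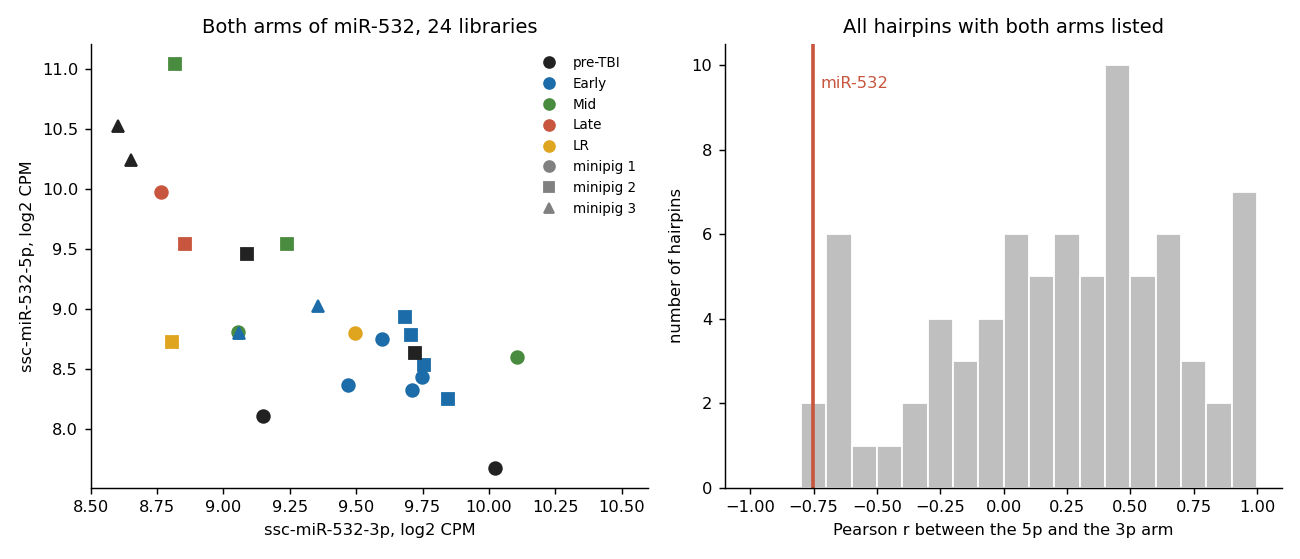
Left, log2 CPM of ssc-miR-532-5p against ssc-miR-532-3p in each of the 24 libraries, coloured by phase and shaped by minipig. Right, the number of hairpins by the Pearson r between their arms, for 78 hairpins, with miR-532 (r = -0.75) marked as the second lowest.

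The ratio of the arms within a library does not depend on scaling. The log2 ratio of 5p to 3p counts had a mean of -0.08 in pre-TBI libraries with an SD of 1.67 and a range from -2.26 (minipig 1 at C7) to 1.94 (minipig 3 at C7). At Early it had a mean of -0.99 with an SD of 0.44 (n = 10) and was below 0 in all 10 libraries, so ssc-miR-532-3p was the more abundant arm in each of them. At 10d the ratio was -1.49 in minipig 1 and 2.21 in minipig 2, where the 5p arm reached its highest level, 2100 CPM from 90 counts beside 19 counts of the 3p arm. At 17d it was 1.18 and 0.69, with 21 against 9 and 47 against 29 counts, and at 20d -0.71 and -0.08. The 5p arm was thus the more abundant one in both animals at 17d alone among the post-TBI draws.

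Within animals, the mean difference of this ratio from pre-TBI was -0.79 at Early (0.48, -0.77 and -2.08 in minipigs 1, 2 and 3). It was 1.20 for Mid (0.78 and 1.62 in minipigs 1 and 2), 1.94 for Late (2.83 and 1.05) and 0.61 for LR (0.95 and 0.28). A two-sided exact permutation test within minipigs gave p = 0.111, 0.222, 0.222 and 0.444 in that order, adjusted over the 4 tests to 0.296, 0.296, 0.296 and 0.444. The smallest p that the design allows was 0.000741 for Early, 0.0556 for Mid and 0.111 for both later phases, so the tests of Mid, Late and LR could not have passed. By the means of the phases from 10d to 20d both animals had a higher ratio than before TBI, and the animals differed in sign at Early. Single libraries did not all lie higher. Minipig 1 at 10d (-1.49) lay between its own pre-TBI values of -2.26 and -1.05. Minipig 2 at 14d (0.30) and 20d (-0.08) lay between its own of -1.10 and 0.37. The value of -2.26 came from 4 against 21 counts.

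**Figure D4:**
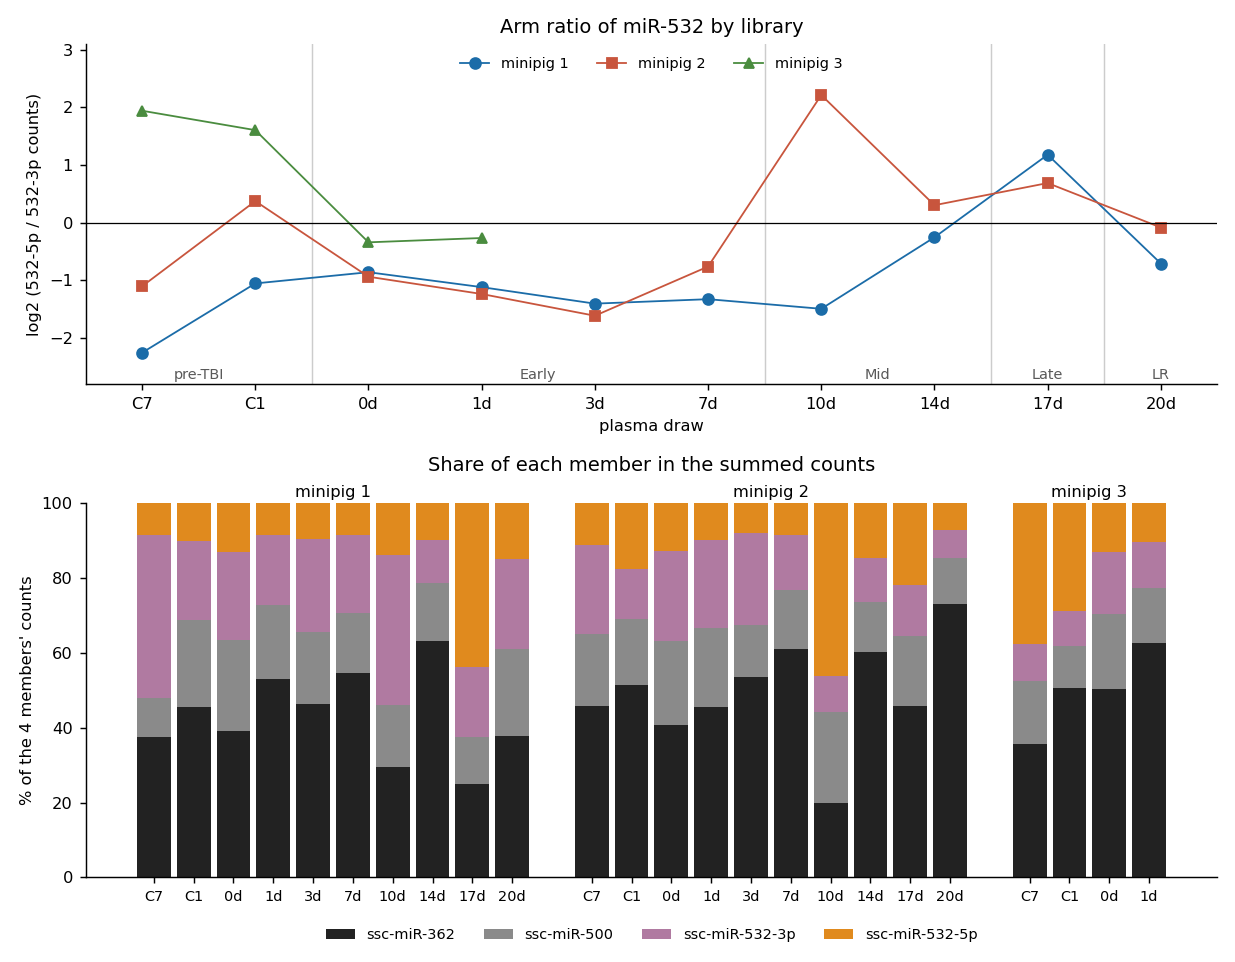
Top, log2 ratio of ssc-miR-532-5p to ssc-miR-532-3p counts (0.5 added to each) at each draw, 1 line per minipig. Bottom, the percentage of the 4 members' summed counts held by each member in each library, in which ssc-miR-362 held 20% (minipig 2 at 10d) to 73% (minipig 2 at 20d).

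The 4 members together took 0.197 to 0.536% of the pre-TBI libraries. In Early libraries they took 0.245 to 0.699%, in Mid libraries 0.194 to 0.56%, in Late ones 0.165 to 0.337% and in those of LR 0.246 to 0.766%. The ranges of all phases overlapped with that before TBI. The share of ssc-miR-532-5p in this sum ran from 7.09% (minipig 2 at 20d) to 46.2% (minipig 2 at 10d), with 37.7 and 28.7% in minipig 3 before TBI and 43.8% in minipig 1 at 17d. The shares of ssc-miR-500 ran from 10.4 to 24.2%. More release of a miRNA, slower clearance and a change in the other plasma RNAs cannot be told apart from such shares.

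The members did not move as a unit. ssc-miR-362 and ssc-miR-500 had a Pearson r of 0.46 over the 24 libraries, and ssc-miR-500 was rank 83 of 410 among the partners of ssc-miR-362. The other pairs apart from the arms of miR-532 lay between -0.13 and 0.21, beside a median of -0.01 over all pairs of ssc-miRNAs. The ssc-miRNAs outside the cluster most like ssc-miR-362 were ssc-miR-370 (r = 0.93), a miRNA of the imprinted DLK1-DIO3 locus, ssc-miR-7142-3p (0.92), ssc-miR-452 (0.89), which is X-linked in human, ssc-miR-2320-3p (0.85) and ssc-miR-210 (0.82), the miRNA induced in hypoxia, each over 24 libraries. No member of its own cluster was among these 5.

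Other X-linked miRNAs were taken as a list by the human gene order. Of 39 such rows, 2 were called higher and 5 lower in Early, 3 and 1 in Mid, 7 and 1 in Late, and 2 and 2 in LR at an unadjusted p under 0.05, and 0 passed after adjustment. In all, 17.9%, 10.3%, 20.5% and 10.3% of the list were called, beside 18.7%, 5.35%, 22.6% and 5.6% of all ssc-miRNAs. Over all 411 rows 21 were higher and 56 lower in Early and 64 and 29 in Late, which became 3 and 69 in Early and 38 and 43 in Late with library size only. The median log2 fold changes of the 39 X-linked rows were -0.27, 0.09, 0.37 and -0.42 at Early, Mid, Late and LR, against 0.34, 0.31, -0.36 and 0.11 for the 4 members. The list describes rows on 1 chromosome and was not tested against other miRNAs.

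Markers of blood cells were read in the same libraries. The log2 ratio of miR-451 to miR-23a counts, a measure of lysed red cells, was -1.162 to 3.43 in pre-TBI libraries and -0.32 to 3.76 in Early ones, then -1.31 to 0.08 (Mid), -1.42 to -0.30 (Late) and 0.04 to 1.72 (LR), and miR-451 itself was called lower at Mid and Late (unadjusted). The summed erythroid rows took 0.909 to 2.93% at Mid and 0.604 to 1.02% at Late, and the platelet rows 0.523 to 1.58% and 0.233 to 0.711%. Before TBI these sums were 1.02 to 9.02% and 0.953 to 2.25%. The platelet sum was mostly ssc-miR-191, with a median of 2811.5 counts against 24 to 200.5 for the other platelet rows. At Late ssc-miR-191 was the only platelet row called lower, and at LR ssc-miR-126-5p was called higher (both unadjusted). ssc-miR-122 and ssc-miR-1 were called lower at LR, also unadjusted. Of the 20 marker rows, with liver and muscle, 10%, 10% and 15% were called at Mid, Late and LR. The shares of all ssc-miRNAs were 5.35%, 22.6% and 5.6%, and 0 marker rows passed after adjustment. The rows of miR-142, which is haematopoietic and not a marker of 1 blood cell type, took 0.0351 to 0.149% before TBI. They took 0.0219 to 0.0473% at Mid, where 1 of 2 was called lower. miR-150 of lymphocytes was called at no phase, with 0.0493 to 0.0627% before TBI and 0.024 to 0.121% at Late. In plasma, fewer cells of a type and less RNA released per cell cannot be told apart. Over the 24 libraries the miR-451 to miR-23a ratio had a Pearson r of 0.04 with ssc-miR-362, 0.28 with ssc-miR-500, 0.13 with ssc-miR-532-3p and -0.05 with ssc-miR-532-5p, as a description.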

How the data were processed

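Per the study's methods and the labels, the authors built TruSeq small RNA libraries from plasma, demultiplexed with bcl2fastq, trimmed with Cutadapt, aligned with Bowtie2 (2.2.3.0) to the pig genome (ssc5) and to miRBase, and counted with miRDeep2. The authors deposited raw counts, whole numbers without normalization, for 411 ssc-miRNAs. PCR copies were not separated, so count intervals cover counting error only.

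Here, libraries under 1000 counts were left out. Counts were tested with edgeR 4.0.16 (R 4.3.3; TMM, CPM above 0.5 in at least 3 libraries, quasi-likelihood test, Benjamini-Hochberg over 411), with all kept libraries in 1 fit per grouping (5 phases, 9 groups by time point with C7 and C1 pooled, or 10 time points). DESeq2 1.42.0 and the alternatives in the closing section were run beside it. log2 CPM used a prior count of 2 and the arm ratio a pseudocount of 0.5. The tests were tested on simulated data. Libraries of 1 minipig come from the same animal and deviated together from the group means (mean r 0.17 over 78 pairs, against -0.10 over 130 pairs of different minipigs), so the blocked value is given where it changes a call. The same draws repeat within 3 animals, and p-values without the block treat them as independent. The members, the marker lists and the X-linked list were chosen with earlier results of these data known. Named outside the cluster are the 5 ssc-miRNAs with the highest r to ssc-miR-362, which was also the most abundant member. Tests by time point are given singly for members with an unadjusted p under 0.05, and a few others (ssc-miR-500 at 0d, calls under the block) were picked after their values were seen. Leaving out single libraries, the difference between minipigs, and the arm correlations by scaling, depth and minipig were added after seeing the data. miRNA sequences are not shown, and miR-223 was not analysed here.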

Additional observations from a re-analysis of the deposited data

Results flagged for a closer look

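The mean change of ssc-miR-532-5p from pre-TBI to Early had opposite signs in 2 animals. All 4 Early libraries of minipig 1 were above both of its pre-TBI libraries (mean difference 0.58 on the log2 scale) and both Early libraries of minipig 3 were below both of its own (-1.47). The difference between these changes was -1.995 (SE 0.48) with an adjusted p = 0.17 by edgeR, and it was chosen for a test after its values were seen. The pre-TBI values of minipig 1 came from 4 and 32 counts. Their Poisson intervals overlapped those of all 4 of its Early libraries, so its rise is not set apart from counting error. ssc-miR-362 and ssc-miR-500 also had all 4 Early libraries of minipig 1 above both pre-TBI ones, with mean differences of 0.73 and 0.83. In 15 groups of 4 to 10 libraries, no member had a single library far from the rest by Dixon's criterion, where chance alone gives about 1 in 20 groups.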

How the results depend on the processing

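Of 254 refits of the members' log2 fold changes, 218 kept their direction and their side of an unadjusted p of 0.05, 20 lost a call, 4 gained one and 12 turned sign. These refits covered the phases, LR against Late and ssc-miR-362 at 14d. They included single libraries left out for ssc-miR-532-5p at Early and ssc-miR-362 at 14d. Refits at other time points are not in this count, so the calls gained there, given next, add to it. By DESeq2 the number of members called was 2 at Early, 1 for LR against Late and 1 at 3d, where edgeR gave 1, 0 and 0. Of all ssc-miRNAs at Early, DESeq2 called 37 higher and 70 lower, where edgeR called 21 and 56. With the minipig as a replicate block 0 members were called at Early, beside 22 higher and 70 lower of all ssc-miRNAs. Under the block 1 member was called at each of 7d, 10d and 20d, where 0 were called without it. With only the groups compared 1 member was called at 7d. For these settings the shares of all ssc-miRNAs called at single time points and for LR against Late are not given, so those counts have no background beside them. At 14d the 1 call became 0 with library size only and with C7 only as the baseline. Without single animals the number ranged from 0 to 1 at Early, Mid, LR, 1d, 3d, 10d, 17d and 20d, and it was 0 at 14d whichever animal was left out. After Benjamini-Hochberg adjustment no member was called in any of these settings, save ssc-miR-532-5p at Early when 1 pre-TBI library of minipig 1 was left out, a setting added after seeing the data.

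For ssc-miR-532-3p at Mid the log2 fold change became -0.071 with the minipig as a block and -0.11 with C7 only as the baseline, and without single animals it ran from -0.10 to 0.54 (main 0.12). For ssc-miR-532-5p at Late it became -0.21 with library size only and -0.013 with C7 only, and without single animals it ran from -0.42 to 1.00. Leaving out animals gave -1.001 to 1.19 for ssc-miR-532-5p at Mid, -1.20 to 0.060 for it at LR, -0.51 to 1.27 for ssc-miR-362 at LR and -0.39 to 0.20 for ssc-miR-532-3p at LR. Without minipig 3 the Early log2 fold change of ssc-miR-532-5p was -0.15. The cause of these shifts was not tested. The arm ratio of miR-532 at Early ran from -1.43 without minipig 1 (exact permutation p = 0.0444) to -0.15 without minipig 3, and at LR it became -0.31 with no replicate block. With library size only the median of all ssc-miRNAs at Late moved from 0.08 to -0.21, so signs of small changes there rest on the scaling.

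Late and LR rest on 2 libraries each, and counts of 4 to 21 behind the lowest libraries of minipig 1 limit ratios there.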
